A study of Mus musculus with 12 samples.

Results

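The genes that carry glucose into the cell and through glycolysis, lactate export, gluconeogenesis and the pentose phosphate pathway were followed across 12 RNA sequencing libraries of mouse liver cancer. The set was a written list of 42 genes, kept where a gene had at least 10 counts in at least 3 of the 12 libraries. All 42 listed genes met that rule, of 21878 genes in the count table, and all 42 were among the 14330 genes tested. The labels name Hepa1-6, a hepatoma line of the mouse, and give the tissue as liver. There were 4 groups of 3 libraries: untreated, antiPD1 (antibody blockade of PD-1, an inhibitory receptor of T cells), IFNa (the cytokine interferon alpha) and both agents together, called the combination here. The labels give no dose, time, strain, sex or age, and do not say whether the cells were grown in culture or as tumours in mice. Nor do they tell if the 3 libraries of a group are separate animals, cultures or preparations, so p-values measure only the spread between these libraries, which may be technical.

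Glycolysis splits glucose into pyruvate, and lactate dehydrogenase turns pyruvate into lactate, which leaves the cell through monocarboxylate transporters. Pyruvate dehydrogenase kinases hold pyruvate back from the mitochondrial citric acid cycle, and the pentose phosphate pathway draws glucose-6-phosphate off for NADPH and ribose. Healthy hepatocytes also run the path in reverse and release glucose, with their own enzyme forms (such as GLUT2 and liver pyruvate kinase), whereas hepatomas are known for high GLUT1, hexokinase 2, muscle-type pyruvate kinase and lactate dehydrogenase A.

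Library totals were 31.3 to 38.5 M counts (M, mega), and the 42 genes took 1.25 ± 0.127% of them in untreated, 1.19 ± 0.0285% with IFNa, 1.30 ± 0.0862% with antiPD1 and 1.12 ± 0.0555% with the combination (mean ± SD, n = 3 each, as for every such value here). CPM values are counts per M of the library total after TMM, a factor per library that evens out composition. FPKM values are also divided by gene length and are used wherever genes are compared with each other. AntiPD1 replicate 3 and IFNa replicate 1 stood furthest from their groups. On the first principal component antiPD1 replicate 3 was at 63.4, against 11.97 and 10.05 for its group, and on the second IFNa replicate 1 was at -42.7, against 7.67 and 9.87. Hepatoma markers (Afp, Gpc3, Alb and Igf2) summed to 12779 to 23831 CPM over all libraries. Alb is also a gene of healthy hepatocytes, so this sum does not measure the amount of tumour. Immune and stromal markers were present too. The 11 leukocyte markers summed to 290 to 306 CPM in untreated, 176 to 382 with IFNa, 418 to 1278 with antiPD1 and 567 to 603 with the combination. The 11 myeloid markers summed to 212 to 434, 307 to 423, 852 to 3754 and 1157 to 1468 CPM in the same order. Sums of 7 fibroblast markers were 438 to 1638, 1249 to 1452, 1426 to 4071 and 1483 to 1828 CPM. Sums of 12 adult hepatocyte markers were 350 to 645, 461 to 1731, 556 to 4471 and 568 to 2487 CPM. Over all libraries, endothelial markers summed to 93.6 to 383, adipocyte markers to 19.6 to 104, erythroid markers to 29.6 to 505 and pancreatic acinar markers to 0.259 to 53.3 CPM. No listed marker of these types was at 0 in every library except 1 of 5 for adipocytes. In bulk RNA, fewer cells of a type and less RNA per cell cannot be told apart.

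In untreated libraries the pathway had the enzyme forms known from hepatomas. Ldha, lactate dehydrogenase A, had the highest level of the 42 genes at 1135 ± 139 FPKM, followed by Pgk1 (phosphoglycerate kinase, 454 ± 114 FPKM), Aldoa (aldolase A, 399 ± 29.1 FPKM), Tpi1 (triosephosphate isomerase, 379 ± 51.0 FPKM), Pkm (muscle-type pyruvate kinase, 319 ± 25.2 FPKM) and Eno1 (enolase 1, 312 ± 16.8 FPKM). Pgk1 and Aldoa, Aldoa and Tpi1, and Pkm and Eno1 differed by less than the larger SD of each pair. Slc2a1, which encodes the glucose transporter GLUT1, stood at 135 ± 31.4 FPKM, against 18.5 ± 7.27 for Slc2a3 (GLUT3) and 1.06 ± 0.636 for Slc2a2 (GLUT2, the hepatocyte form). Among hexokinases, which trap glucose as glucose-6-phosphate, Hk2 had 43.2 ± 4.0 FPKM, Hk1 22.2 ± 3.52 and Hk3 1.66 ± 0.656. Liver pyruvate kinase, Pklr, had 7.83 ± 0.310 FPKM, so Pkm made up 97.6 ± 0.252% of the summed FPKM of the pair. The lowest levels of the set were those of Pdk4 (0.297 ± 0.0862 FPKM), the neuronal enolase Eno2 (0.355 ± 0.0458) and lactate dehydrogenase B, Ldhb (0.362 ± 0.113), which overlapped each other.

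**Figure D1:**
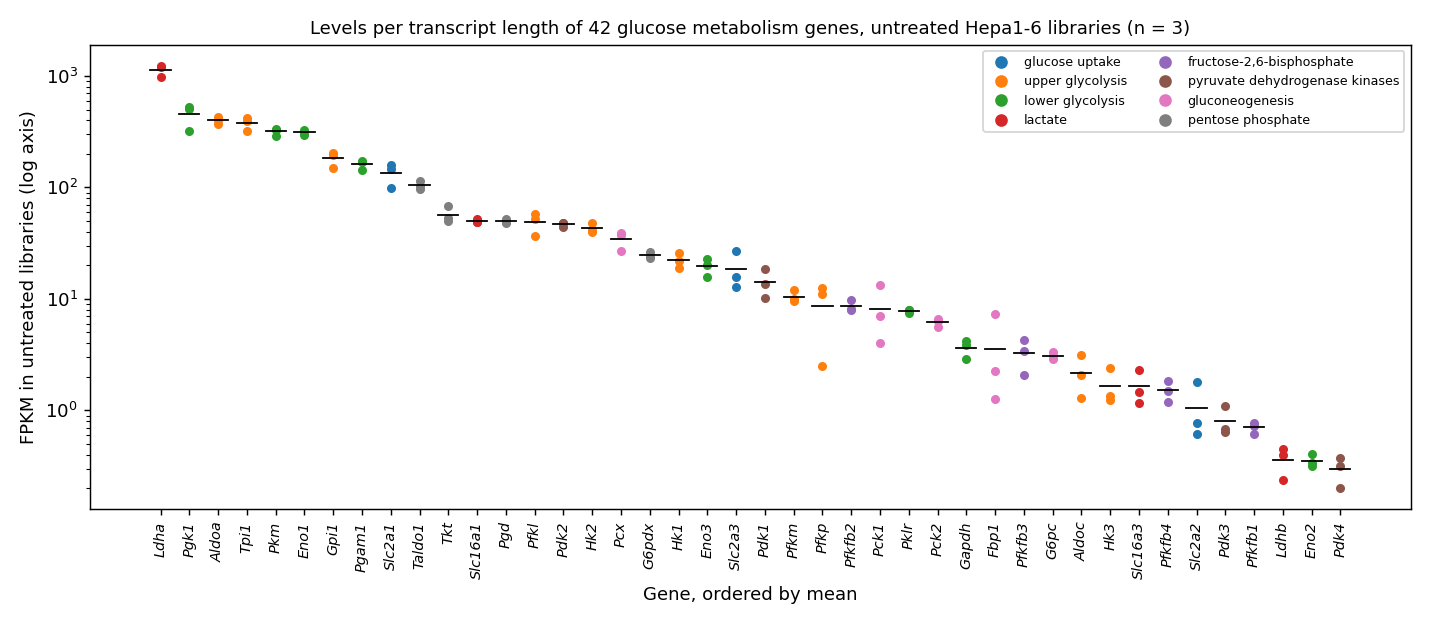
FPKM of the 42 genes in the 3 untreated libraries on a log axis, ordered by mean; points are libraries, black bars are means and colours are steps of the pathway. Ldha lies at the top at 1135 FPKM, and Ldhb, Eno2 and Pdk4 lie at the bottom between 0.297 and 0.362 FPKM.

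Some of these levels are uncertain because reads can be shared with near-identical copies. Gapdh, the dehydrogenase of glyceraldehyde-3-phosphate and a common reference gene, was listed at 3.66 ± 0.683 FPKM in untreated libraries, although its counts there gave 169 ± 27.1 CPM. Pgam1 had 349 ± 44.9 CPM and 162 ± 16.1 FPKM, so the deposited counts and FPKM place Gapdh very differently, and its FPKM is not read as its level here. Of its 1371 stretches of 50 bases in GENCODE M21 transcripts, 82.5% also occur in another gene, and 215 of the 222 genes that hold them are pseudogenes. The share was 72.2% for Eno1, 68% for Pgk1, 41.5% for Pgam1 (phosphoglycerate mutase), 34.4% for Pkm, 27% for Ldhb, 25.3% for Gpi1 and 16.6% for Ldha. It was 0% for Hk2, Hk3, Pfkm, Eno3, Slc16a3, Pdk2, Pdk3 and Pcx. How reads with several matches were counted, and whether by strand, is not stated in the sources used here. Coordinates below are those of the whole gene in mm10 with GENCODE M21. Slc2a1, Hk3, Gpi1, Pfkm, Pdk2 and Pcx overlap other annotated genes (Unc5a for Hk3, Senp1 for Pfkm, Lrfn4 for Pcx, predicted or microRNA genes for the rest), so some of their reads may belong to those.

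IFNa alone was compared with untreated libraries. No gene of the 42 passed, at an adjusted p under 0.05 over all 14330 genes tested with edgeR, and the share of all genes called was 0% higher and 0% lower. At an unadjusted p under 0.05 there were 3 of the 42 and 801 of all genes, and DESeq2 called 37 genes, 0 of them in the set. The median log2 fold change of the 42 was -0.10, with 26 lower and 16 higher, beside 0.01 over all genes. The 3 with a small unadjusted p, named here after their values were seen, were Slc2a3 (-0.78 ± 0.29, standard error, as beside every log2 fold change), Pfkm (-0.37 ± 0.12) and the pentose phosphate enzyme Tkt, transketolase (-0.27 ± 0.12), with adjusted p-values of 0.866, 0.866 and 0.885. The 3 IFNa libraries had 35.05, 72.2 and 69.5 CPM of Slc2a3 beside 146, 71.7 and 85.3 in untreated. IFNa replicate 1 was the lowest of the 12, and the groups overlapped.

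AntiPD1 alone was next compared with untreated libraries. Of the 42 genes 4 rose and 1 fell. That is 9.52% and 2.38%, beside 9.76% of all genes that rose and 5.08% that fell, so neither share was above that of the table as a whole. The 4 that rose, Hk3, Ldhb, Slc16a3 and Pdk3, were all at low levels in untreated libraries and are the minor forms of their steps. The median of the 42 was 0.07 on the log2 scale, with 24 higher and 18 lower, beside -0.01 over all genes. All antiPD1 libraries lay above all untreated ones for 7 of the 42 and below them for 4. Over the 14330 genes tested this held for 2513 and 2645, so such separation was common. Separation of all libraries given antiPD1, alone or combined, from all others was not counted over all genes. Nor was that of all treated libraries from the untreated ones.

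Hk3 (chr13:55005985-55021385) is a hexokinase found mainly in blood cells. It had 7.94, 7.62 and 14.2 CPM in untreated, 7.90, 16.8 and 17.1 with IFNa, 33.1, 28.2 and 119 with antiPD1 and 41.9, 40.0 and 54.0 with the combination. Every library given antiPD1, alone or combined, was above every library not given it. This was a log2 fold change of 2.59 ± 0.55 with antiPD1 (adjusted p = 0.0209) and 2.19 ± 0.54 with the combination (adjusted p = 0.0312).

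Slc16a3 (chr11:120948480-120960868) encodes MCT4, the exporter that glycolytic cells use for lactate. It had 4.83, 6.50 and 9.26 CPM in untreated, 8.08, 12.4 and 11.8 with IFNa, 28.8, 12.9 and 51.8 with antiPD1 and 14.2, 16.4 and 14.3 with the combination. Again the libraries given antiPD1 all lay above the others, by a narrow margin for antiPD1 replicate 2. The change with antiPD1 was 2.18 ± 0.43 on the log2 scale (adjusted p = 0.0199), and that with the combination was 1.12 ± 0.42 (adjusted p = 0.0941). Slc16a1, which encodes the more widespread MCT1 and was the main form, did not pass with either (-0.17 ± 0.10 and -0.23 ± 0.10).

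For Ldhb (chr6:142490249-142507957), the lactate dehydrogenase form that favours pyruvate, the values were 0.681, 0.372 and 0.764 CPM in untreated, 0.631, 0.772 and 0.629 with IFNa, 2.29, 1.55 and 6.33 with antiPD1 and 1.78, 1.45 and 2.18 with the combination. Here too the libraries with and without antiPD1 did not overlap, at levels far below those of Ldha. The log2 fold change with antiPD1 was 2.47 ± 0.52 (adjusted p = 0.0207), and 1.57 ± 0.51 with the combination (adjusted p = 0.0647).

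Pdk3 (chrX:93764607-93832201) is one of 4 kinases that switch off pyruvate dehydrogenase. It had 1.59, 1.76 and 2.66 CPM in untreated, 1.86, 2.55 and 2.59 with IFNa, 4.62, 4.05 and 11.2 with antiPD1 and 5.24, 4.19 and 5.32 with the combination. It showed the same order of libraries, with no overlap between those given antiPD1 and the rest. Against untreated, log2 fold changes were 1.72 ± 0.39 with antiPD1 (adjusted p = 0.0229) and 1.29 ± 0.39 with the combination (adjusted p = 0.0511).

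Pfkm (chr15:98092589-98132451), the muscle-type subunit of phosphofructokinase, the enzyme that commits sugar to glycolysis, was the 1 gene that fell with antiPD1. Its values were 69.4, 58.8 and 52.9 CPM in untreated, 45.8, 47.4 and 46.8 with IFNa, 49.7, 44.5 and 38.7 with antiPD1 and 39.1, 40.5 and 39.5 with the combination. All 9 treated libraries lay below the 3 untreated ones. The log2 fold change was -0.45 ± 0.12 with antiPD1 (adjusted p = 0.0310) and -0.61 ± 0.12 with the combination (adjusted p = 0.0170).

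AntiPD1 replicate 3 had the highest level among the 12 libraries of Hk3, Ldhb, Slc16a3 and Pdk3. It also had the highest leukocyte and myeloid sums (1278 and 3754 CPM). Its fibroblast, adult hepatocyte and hepatoma sums (4071, 4471 and 23831 CPM) were the highest of the 12 as well. With antiPD1, 9 of 11 leukocyte and 11 of 11 myeloid markers rose, as did 3 of 7 fibroblast and 2 of 12 adult hepatocyte markers, and 1 of 4 hepatoma markers fell. Their part in the 4 rises was not tested. Without that library the log2 fold changes were 1.63 for Hk3 (adjusted p = 0.0481), 1.61 for Slc16a3 (0.0481), 1.67 for Ldhb (0.0529), 1.12 for Pdk3 (0.0647) and -0.35 for Pfkm (0.107), so 2 of the 5 calls were left. With IFNa replicate 1 left out as well, a choice made after the data were seen, the calls were Hk3, Ldhb, Slc16a3, Pdk3 and G6pdx. Leaving out untreated replicate 1 or 2 left 0 calls among the 42 (and 5 and 6 among all genes), and leaving out untreated replicate 3 gave 9. Fitting only the untreated and antiPD1 libraries left 0 calls, among the 42 and among all genes. Over all alternatives the adjusted p ranged from 1.29e-05 to 0.107 for Hk3, 1.14e-05 to 0.107 for Slc16a3, 0.000118 to 0.107 for Ldhb, 0.000372 to 0.108 for Pdk3 and 0.00738 to 0.140 for Pfkm, and none of the 5 changed direction.

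**Figure D2:**
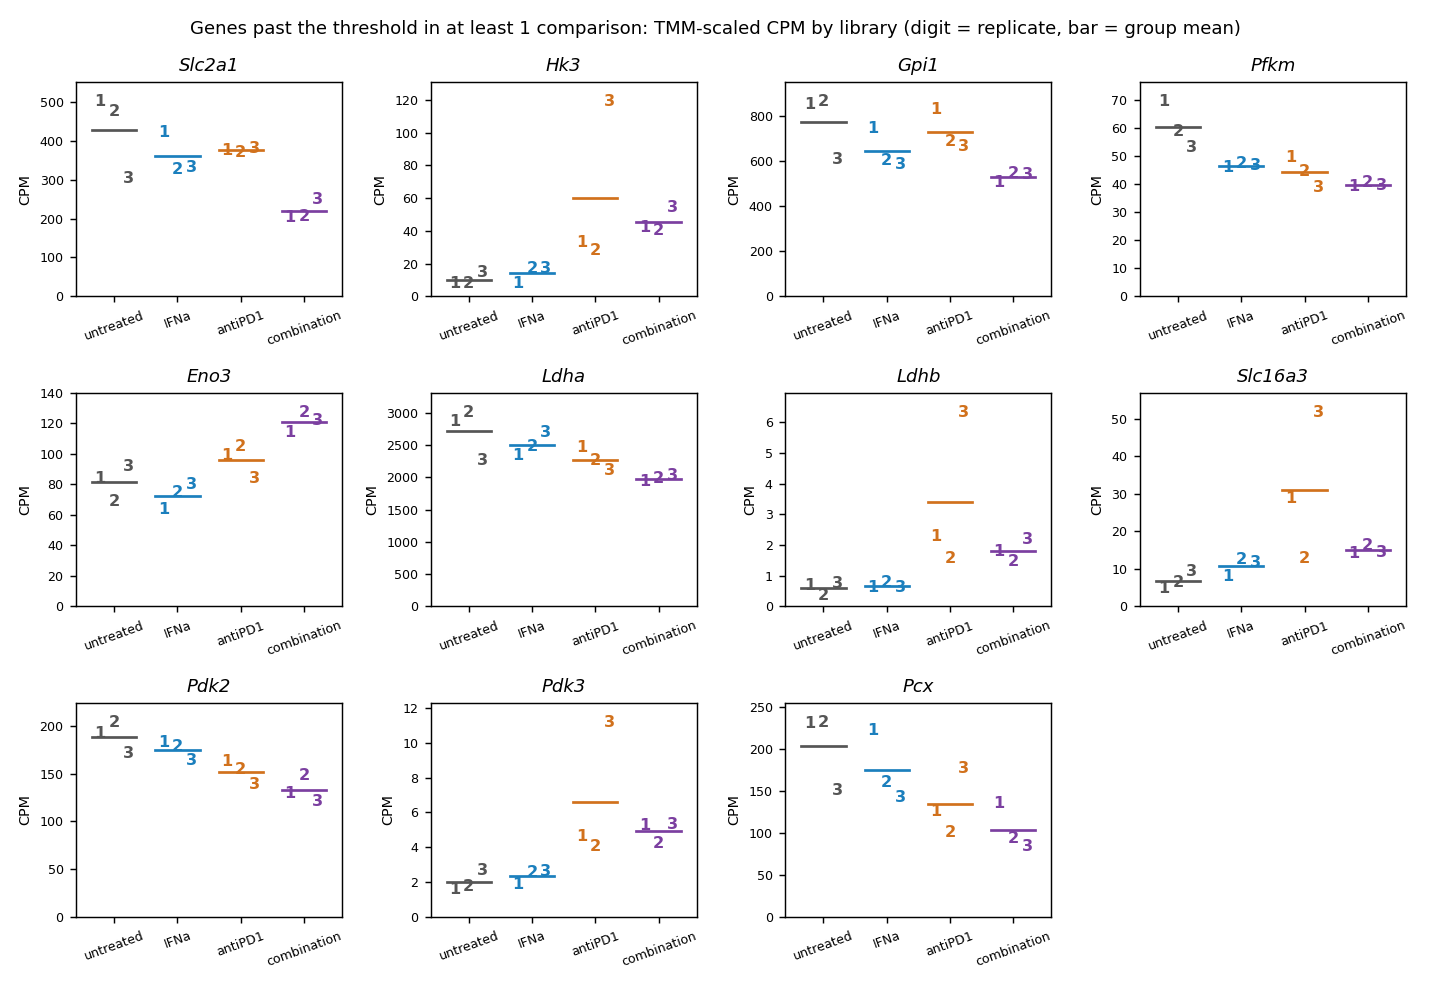
TMM-scaled CPM of the 11 genes past the threshold in at least 1 comparison, by group; each digit is a library (its replicate number) and each bar a group mean. Hk3, Ldhb, Slc16a3 and Pdk3 are higher in every library given antiPD1, with antiPD1 replicate 3 on top, and Slc2a1, Gpi1, Pfkm, Ldha, Pdk2 and Pcx are lowest as a group in the combination.

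**Figure D3:**
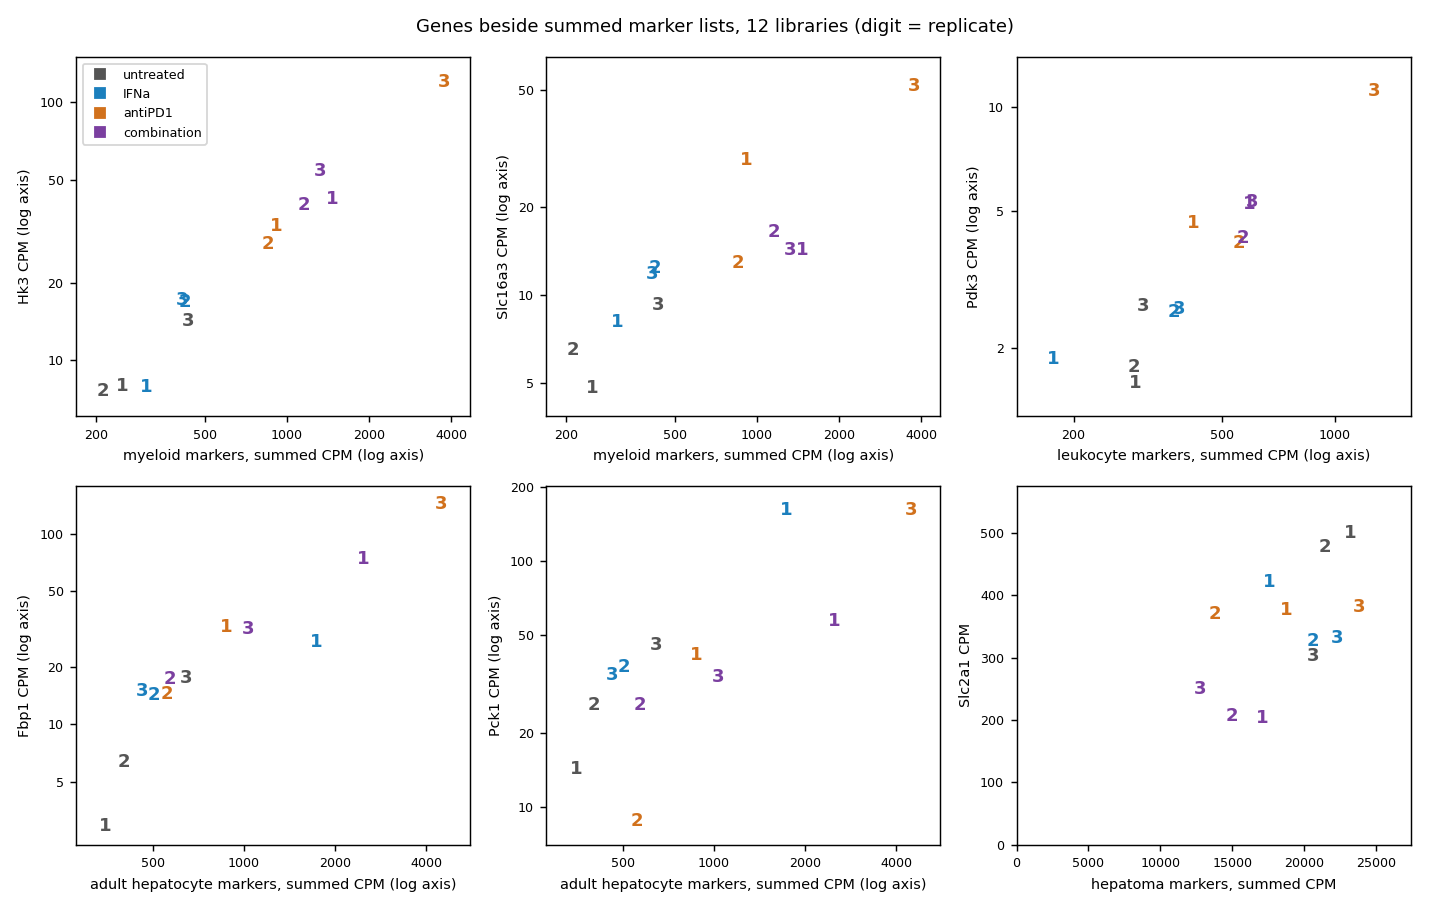
CPM of 6 genes beside the summed CPM of a marker list in the same 12 libraries (log axes, except the Slc2a1 panel); digits are replicates and colours groups. Hk3 and Pdk3 are highest in antiPD1 replicate 3, which also has the highest myeloid and leukocyte sums. Fbp1 is highest there with the highest adult hepatocyte sum (4471 CPM). The hepatoma sum and the fibroblast sum (not drawn) are highest in that library too.

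The combination was compared with the same untreated libraries, so both comparisons share their controls. Of the 42 genes 6 fell and 2 rose. The 14.3% that fell stood beside 5% of all genes, and the 4.76% that rose beside 7.58% of all genes. The median of the 42 was -0.18 on the log2 scale, with 26 lower and 16 higher, beside -0.01 over all genes. All combination libraries lay above all untreated ones for 8 of the 42 and below them for 12. Over the 14330 genes tested this held for 3542 and 3555, so lack of overlap was common here too. How many of all genes had the combination libraries apart from all other libraries was not counted. Those that fell were Slc2a1, Gpi1, Pfkm and Ldha, which act between uptake and lactate, Pdk2 and the gluconeogenic enzyme gene Pcx. The 2 that rose, Hk3 and Eno3, belong to glycolysis as well. Of the 8 lower glycolysis genes 0 fell and 1 rose past the threshold, while 6 were lower and 2 higher, with a median of -0.16. Pgk1 was at -0.49 ± 0.18 (adjusted p = 0.0867) and Gapdh at -0.31 ± 0.13 (0.144), and neither passed.

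Slc2a1 (chr4:119108711-119137983), the main glucose transporter gene here, had 501, 477 and 303 CPM in untreated, 422, 326 and 332 with IFNa, 376, 370.0 and 381 with antiPD1 and 204, 206 and 250.1 with the combination. The 3 combination libraries were the lowest of all 12, and either treatment alone overlapped the untreated range. The fall with the combination was 1.94-fold (log2 fold change -0.96 ± 0.18, adjusted p = 0.0162), the smallest adjusted p of the set in that comparison.

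Ldha (chr7:46841475-46855627), whose enzyme makes lactate from pyruvate, had 2864, 3012 and 2261 CPM in untreated, 2337, 2479.7 and 2699.7 with IFNa, 2459, 2261 and 2103 with antiPD1 and 1932, 1987 and 2029 with the combination. All combination libraries were below all others, by a smaller margin than for Slc2a1. The log2 fold change was -0.45 ± 0.11 with the combination (adjusted p = 0.0327) and -0.25 ± 0.11 with antiPD1 (adjusted p = 0.144).

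Gpi1 (chr7:34201330-34230336) encodes the isomerase that follows hexokinase. Its values were 850.0, 864 and 607 CPM in untreated, 746, 602 and 583 with IFNa, 831, 687 and 665 with antiPD1 and 505, 547 and 543 with the combination, again lowest in the combination without overlap. It fell by 0.54 ± 0.15 on the log2 scale (adjusted p = 0.0417). Of the 10 upper glycolysis genes 8 were lower, with a median of -0.34, and those that passed were Gpi1, Pfkm and, in the other direction, Hk3. Among those that did not pass, Tpi1 was at -0.36 ± 0.12 (adjusted p = 0.0614), Hk1 at -0.32 ± 0.14 (0.139), the liver-type subunit Pfkl at -0.44 ± 0.21 (0.175) and Aldoa at -0.06 ± 0.11 (0.721).

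Pdk2 (chr11:95026258-95041354) is the kinase of pyruvate dehydrogenase with the highest level here, at 46.6 ± 2.05 FPKM in untreated libraries beside 14.2 ± 4.17 for Pdk1. It had 191, 204 and 171 CPM in untreated, 183, 178 and 163 with IFNa, 163, 155 and 138 with antiPD1 and 129, 148 and 120.5 with the combination. Libraries given antiPD1 in either form were below all untreated ones. Its level moved by -0.31 ± 0.11 on the log2 scale with antiPD1 (adjusted p = 0.0678) and -0.51 ± 0.11 with the combination (adjusted p = 0.0201), so this kinase fell in the comparison where Pdk3 was at 1.29 ± 0.39.

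Pcx (chr19:4510472-4621752), pyruvate carboxylase, feeds pyruvate into gluconeogenesis and into the citric acid cycle. It had 230.2, 232 and 150.4 CPM in untreated, 222, 159.6 and 142 with IFNa, 126, 101 and 177 with antiPD1 and 135, 92.8 and 83.8 with the combination. Combination values all lay below the untreated ones, and antiPD1 replicate 3 lay inside the untreated range. It was 1.96-fold lower with the combination (log2 fold change -0.97 ± 0.27, adjusted p = 0.0403), and antiPD1 alone gave -0.60 ± 0.27 (adjusted p = 0.138).

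Eno3 (chr11:70657202-70662513), the muscle-type enolase, rose with the combination. Its values were 83.7, 68.7 and 91.5 CPM in untreated, 63.5, 74.4 and 79.9 with IFNa, 98.8, 105 and 84.0 with antiPD1 and 114, 127 and 122 with the combination. The 3 combination libraries were the highest of the 12. The log2 fold change was 0.57 ± 0.13 against untreated (adjusted p = 0.0243). The 8 skeletal muscle markers listed, which include Acta1 and Ckm, summed to at most 2.40 CPM in any library, and 1 of them was expressed enough to be tested.

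In the combination the myeloid sum was 1157 to 1468 CPM and the hepatoma sum 12779 to 17124 CPM, beside 212 to 434 and 20621 to 23187 CPM in untreated libraries. Of the markers, 4 of 11 leukocyte, 8 of 11 myeloid, 1 of 12 adult hepatocyte and 0 of 7 fibroblast markers rose, and 1 of 4 hepatoma markers fell. Their part in the changes of the 42 genes was not tested. The calls changed with each library left out: 0 of the 42 passed without untreated replicate 1 or 2 or combination replicate 1 or 3, 1 (Pdk2) without combination replicate 2, and 15 without untreated replicate 3. The directions did not, since none of the 8 reversed in any alternative. Over the alternatives the log2 fold change of Slc2a1 ranged from -1.15 to -0.80 (adjusted p 4.94e-05 to 0.0744), that of Ldha from -0.57 to -0.32 (0.00481 to 0.133), that of Pcx from -1.21 to -0.84 (0.00532 to 0.142) and that of Eno3 from 0.45 to 0.68 (0.00252 to 0.114). Gpi1 ranged from -0.69 to -0.43 (adjusted p 0.0107 to 0.154). Leaving out IFNa replicate 1 and antiPD1 replicate 3 together gave 14 calls that include all 8.

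**Figure D4:**
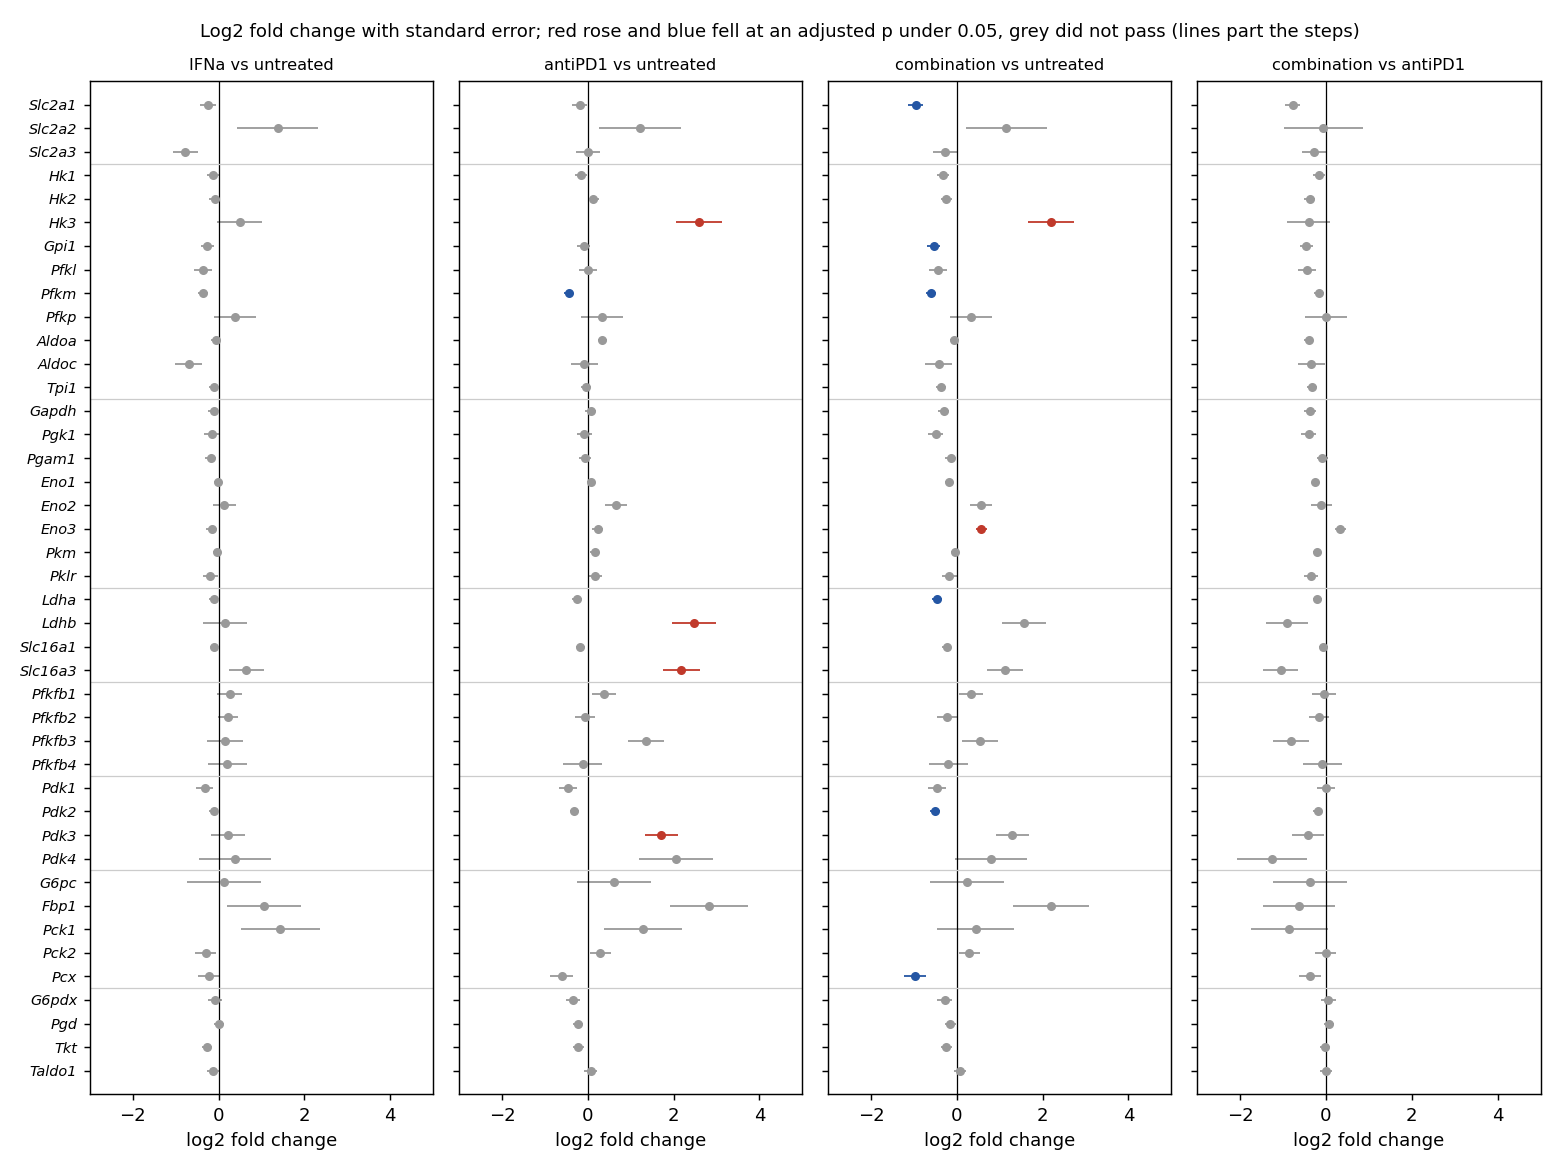
Log2 fold change (point) and standard error (line) of the 42 genes in pathway order for 4 comparisons; red rose, blue fell and grey did not pass. With antiPD1 the coloured points are Hk3, Ldhb, Slc16a3 and Pdk3 above 0 and Pfkm below, with the combination 6 points below 0 and 2 above, and in the panel of combination against antiPD1 all points are grey and 37 lie below 0.

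Promoters are shown for 3 genes that fell with the combination (Slc2a1, Ldha, Pcx) and for Hk3, which rose, because many glycolytic genes are known targets of the hypoxia-inducible factor HIF. Sequences are from RefSeq on GRCm38.p6, the 250 bases before the first listed start, or 216 for Slc2a1, where an annotated transcript begins inside the window. They run 5′ to 3′ on the gene's strand, and capitals mark the HIF core, ACGTG or GCGTG, on either strand. CACGTG holds ACGTG on both strands and counts as 2 matches. The windows are chr4:119108495-119108710 (plus strand) for Slc2a1, chr7:46845554-46845803 (plus) for Ldha, chr19:4510222-4510471 (plus) for Pcx and chr13:55021386-55021635 (minus) for Hk3.
Slc2a1: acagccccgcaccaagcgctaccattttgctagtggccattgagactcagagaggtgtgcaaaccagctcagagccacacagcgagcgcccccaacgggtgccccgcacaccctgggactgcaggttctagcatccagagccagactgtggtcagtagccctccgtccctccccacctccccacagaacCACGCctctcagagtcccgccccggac
Ldha: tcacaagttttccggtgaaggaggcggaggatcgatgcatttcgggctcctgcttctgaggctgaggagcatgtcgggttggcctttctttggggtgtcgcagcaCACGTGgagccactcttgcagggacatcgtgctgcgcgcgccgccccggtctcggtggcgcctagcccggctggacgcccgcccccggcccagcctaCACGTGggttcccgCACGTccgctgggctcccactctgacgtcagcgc
Pcx: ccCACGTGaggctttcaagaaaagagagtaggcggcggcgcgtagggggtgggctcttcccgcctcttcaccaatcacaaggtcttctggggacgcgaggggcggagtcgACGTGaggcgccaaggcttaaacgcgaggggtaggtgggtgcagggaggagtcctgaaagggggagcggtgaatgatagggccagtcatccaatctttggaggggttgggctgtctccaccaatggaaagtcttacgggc
Hk3: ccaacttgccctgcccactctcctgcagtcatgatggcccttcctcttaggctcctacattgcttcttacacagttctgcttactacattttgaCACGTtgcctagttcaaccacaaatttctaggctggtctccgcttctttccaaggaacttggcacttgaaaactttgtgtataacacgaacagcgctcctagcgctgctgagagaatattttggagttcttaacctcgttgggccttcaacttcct
The printed Ldha window held 5 matches of ACGTG, that of Pcx 3 and that of Hk3 1. Ldha and Pcx each have a further listed window, not printed. That of Ldha held 0 of ACGTG and 1 of GCGTG, and that of Pcx 0 of either. The Slc2a1 stretch shows 1 of GCGTG, and 1 of ACGTG runs across its printed end. A promoter was given for 41 of the 42 genes. In at least 1 of their windows 16 of the 41 (39%) held ACGTG, beside 18.5% of 27025 genes, and 25 (61%) held GCGTG, beside 30.9%. By window, 16.6% and 28.2% of 32851 promoters held them, and the share by window was not counted for the 41 genes. A gene with more windows has more chances of a match, and windows per gene were not matched. The comparison also took all genes, expressed or not. These shares therefore do not show enrichment of the HIF core in the pathway. Of the other genes called with the combination, Pfkm and Pdk2, which fell, held ACGTG in at least 1 window. Gpi1, which fell, held neither core. Eno3, which rose, held no ACGTG and 1 match of GCGTG. The motifs of interferon-activated factors were rare: TTCNNNGAA and GAAANNGAA, read on both strands, each occurred in 2 of the 41 (4.88%), beside 8.13% and 8.18% of genes. These are matches of letters, not measured binding sites.

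Adding IFNa to antiPD1 was measured as combination against antiPD1. No gene of the 42 passed in edgeR, and 0% of all genes were called in either direction (lowest adjusted p in the set 0.991). DESeq2 called 15 genes, 0 of them in the set. At an unadjusted p under 0.05 there were 10 of the 42 (23.8%), 9 lower and Eno3 higher, beside 4.76% of all genes. The median of the 42 was -0.26 on the log2 scale, with 37 lower and 5 higher, beside -0.02 over all genes. The groups did not overlap for 1 gene of the 42 that was higher and 12 that were lower. Over the 14330 genes tested those counts were 1074 and 954. All 10 upper glycolysis genes were lower, with a median of -0.36. Slc2a1 had the smallest unadjusted p, with -0.77 ± 0.18, and Aldoa was at -0.40 ± 0.11 (adjusted p = 0.991 for both). The Aldoa libraries stood at 1913, 2024 and 2041 CPM with antiPD1 and at 1383, 1568 and 1571 with the combination, without overlap. Without antiPD1 replicate 3, 27 of the 42 were lower.

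Adding antiPD1 to IFNa was measured as combination against IFNa. Eno3 rose (log2 fold change 0.74 ± 0.13, adjusted p = 0.0320), as 1 of 42 genes (2.38%), and none fell. Over all genes 0.342% rose and 0.614% fell. The IFNa libraries (63.5, 74.4 and 79.9 CPM) were all below the combination libraries given above. The call was lost without any 1 of the 6 libraries compared, with adjusted p-values of 0.0719 to 0.146 and log2 fold changes of 0.65 to 0.80. The next smallest adjusted p-values were those of Slc2a1 (-0.71 ± 0.18, 0.0751) and Pdk2 (-0.40 ± 0.11, 0.0811). Hk3 was at 1.70 ± 0.53 (0.103). The median of the 42 was -0.06, beside 0.02 over all genes. The groups did not overlap for 9 genes of the 42 that were higher and 11 that were lower. Over the 14330 genes tested those counts were 2913 and 2355.

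The interaction, which asks whether the combination differs from the sum of both treatments on the log2 scale, was not called for any of the 42 genes in edgeR or DESeq2. Over all genes edgeR called 0% in either direction and DESeq2 called 55 genes. At an unadjusted p under 0.05 there were 2 of the 42, beside 6.06% of all genes: Slc16a3 (-1.71 ± 0.58) and Eno3 (0.50 ± 0.18), each with an adjusted p of 0.799. Slc2a1 was at -0.53 ± 0.25 (adjusted p = 0.799), so the lower level in the combination than in either treatment alone was not shown to exceed the sum of the 2 effects.

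The share of each step's summed FPKM that its main form held was compared between the 6 libraries given antiPD1 and the 6 not given it, and likewise for IFNa, with an exact two-sided permutation test within the other treatment (400 arrangements, smallest p 0.005). There were 16 tests, and p-values were adjusted over them. MCT1 (Slc16a1) made up 95.8 ± 1.35% of its pair without antiPD1 and 89.3 ± 6.22% with it (exact p = 0.005, adjusted p = 0.04), with 77.7% in antiPD1 replicate 3 the lowest. Ldha held 99.97 ± 0.00895% without and 99.84 ± 0.128% with antiPD1 (exact p = 0.005, adjusted p = 0.04). Both differences kept their direction without any 1 library, but the adjusted p rose to between 0.08 and 0.256 without any 1 of the untreated libraries. Without antiPD1 replicate 3 the Slc16a1 difference was -4.34 percentage points and the Ldha difference -0.0761, beside -6.48 and -0.129 with all libraries. In a pair, the main form loses the share that the minor form gains. Slc16a3 and Ldhb are the minor forms here, and their rises are given above. These 2 tests largely restate those rises and are not a separate result.

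Shares of 3 further steps differed without passing after adjustment. Hk2 held 64.6 ± 1.47% of the hexokinases without and 60.3 ± 2.96% with antiPD1 (exact permutation p = 0.025, adjusted 0.08). Hk3 held 2.52 ± 1.14% in untreated, 3.67 ± 1.45% with IFNa, 12.5 ± 8.65% with antiPD1 and 12.6 ± 1.59% with the combination, against 22.5% in antiPD1 replicate 3. Slc2a1 held 88.2 ± 2.80% of the glucose transporters without and 82.2 ± 3.30% with antiPD1 (exact permutation p = 0.015, adjusted 0.08). Its lowest share, 79.6 ± 2.51%, was in the combination, where Slc2a3 held 17.5 ± 2.33%. Eno1 held 94.3 ± 0.886% of the enolases without and 91.8 ± 1.61% with antiPD1 (exact permutation p = 0.02, adjusted 0.08). Pkm against Pklr (exact permutation p = 1) and Aldoa against Aldoc (0.815) differed by less than the spread between libraries. No share passed for IFNa, the lowest adjusted p being 0.307 for Pfkl.

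**Figure D5:**
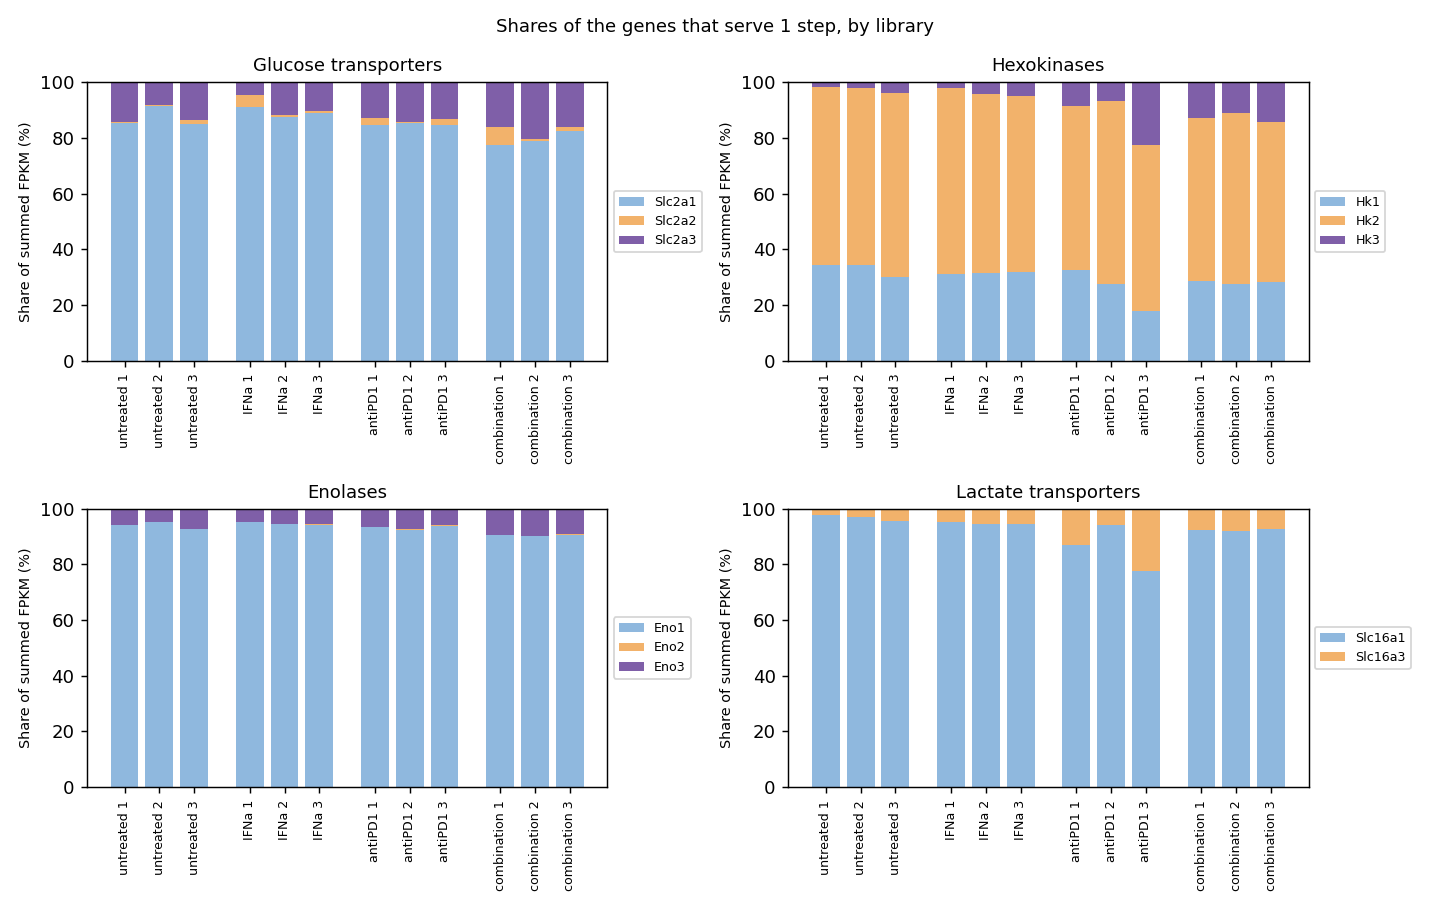
Share of summed FPKM, in percent, held by each gene of 4 steps in the 12 libraries, grouped by treatment; each bar is a library and sums to 100%. Slc2a1, Hk2, Eno1 and Slc16a1 hold most of their steps in every library, and Hk3 and Slc16a3 reach 22.5% and 22.3% in antiPD1 replicate 3.

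Several genes of gluconeogenesis and the liver-type transporter varied widely. Between the lowest and the highest of the 12 libraries, Fbp1 (fructose-1,6-bisphosphatase) differed 48.9-fold, Pck1 (cytosolic phosphoenolpyruvate carboxykinase) 18.5-fold, G6pc (glucose-6-phosphatase, which frees glucose for release) 14.9-fold and Slc2a2 10.9-fold. Ldhb (17-fold), Pdk4 (16.7-fold) and Hk3 (15.6-fold) had spans of similar size, and those of the gluconeogenic genes Pck2 and Pcx were 3.1-fold and 2.77-fold. Pck1 had 14.3, 25.999 and 45.6 CPM in untreated, 162, 37.1 and 34.4 with IFNa, 41.2, 8.76 and 161 with antiPD1 and 56.8, 25.9 and 33.8 with the combination. A single library was high in the IFNa, antiPD1 and combination groups, and all 4 groups overlapped. The same libraries, IFNa replicate 1, antiPD1 replicate 3 and combination replicate 1, had the highest adult hepatocyte sums of the 12, at 1731, 4471 and 2487 CPM. The part of adult hepatocyte RNA in these levels was not tested. None of these 4 genes passed: Fbp1 had log2 fold changes of 1.06 ± 0.87 with IFNa, 2.82 ± 0.91 with antiPD1 (adjusted p = 0.0595) and 2.19 ± 0.89 with the combination (adjusted p = 0.120). Fbp1 was at 143 CPM in antiPD1 replicate 3, and without that library its change with antiPD1 was 1.39 (adjusted p = 0.295). Mitochondrial Pck2, which stood at 24.3 to 27.8 CPM in untreated libraries, was at 0.29 ± 0.24 with the combination (adjusted p = 0.441).

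The bifunctional Pfkfb enzymes set the level of fructose-2,6-bisphosphate, the main activator of phosphofructokinase, and none of the 4 passed. Pfkfb3, the form with the strongest kinase activity, had 29.3, 17.9 and 36.0 CPM in untreated and 45.7, 36.3 and 131 in antiPD1 libraries. The groups were separated by a narrow margin, with antiPD1 replicate 3 far above the rest. Its log2 fold change of 1.36 ± 0.43 had an adjusted p of 0.0562, and without antiPD1 replicate 3 it was 0.57 (adjusted p = 0.226). Pdk4, the starvation-induced kinase, behaved similarly in that library (10.1 CPM, beside 0.603 to 3.91 CPM in the other 11) and did not pass (2.06 ± 0.85, adjusted p = 0.119). Pdk1, another kinase, was at -0.46 ± 0.20 with antiPD1 and -0.46 ± 0.20 with the combination (adjusted p = 0.136 and 0.145).

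The smallest spans over the 12 libraries were those of Eno1 (1.29-fold), the lactate transporter gene Slc16a1 (1.32-fold), Pkm (1.39-fold), Pgam1 (1.41-fold) and Tpi1 (1.44-fold). The 4 pentose phosphate genes spanned 1.5-fold (Tkt) to 1.82-fold (G6pdx). Pkm had 1452, 1575 and 1255 CPM in untreated, 1477, 1326 and 1362 with IFNa, 1744, 1530.3 and 1519 with antiPD1 and 1327, 1386 and 1441 with the combination. No treatment separated from untreated, with log2 fold changes of -0.04 ± 0.10, 0.16 ± 0.10 and -0.04 ± 0.10. Of Hk2, the libraries had 395, 344 and 331 CPM in untreated, 352, 332 and 324 with IFNa, 328, 389 and 456 with antiPD1 and 269.5, 319 and 314 with the combination. The combination was below untreated without overlap, at -0.25 ± 0.13 (adjusted p = 0.201).

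In the pentose phosphate pathway, G6pdx encodes the glucose-6-phosphate dehydrogenase that makes NADPH. It had 99.8, 99.4 and 103 CPM in untreated, 129, 81.8 and 75.3 with IFNa, 85.0, 70.8 and 83.5 with antiPD1 and 82.3, 84.3 and 82.3 with the combination. Libraries given antiPD1 in either form were below all untreated ones, by -0.34 ± 0.17 and -0.28 ± 0.17 on the log2 scale, and neither passed (adjusted p = 0.183 and 0.275). Pgd, Tkt and Taldo1, the other 3 enzymes, lay between -0.27 and 0.07 in every comparison with untreated libraries and did not pass. The remaining genes passed in none of the 6 comparisons. Pfkp, the platelet-type subunit, was set apart by 17.5 CPM in untreated replicate 2, where the other 11 libraries had 33.8 to 98.3. Eno2 was at 0.66 ± 0.26 with antiPD1 (adjusted p = 0.101), at levels of 1.81 to 3.70 CPM. Aldoc, Pgam1, Pfkfb1, Pfkfb2 and Pfkfb4 lay between -0.69 and 0.38 in the comparisons with untreated.

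A further list of 67 genes of glucose metabolism (other transporters, glycogen, fructose and pyruvate dehydrogenase genes and regulators) was read beside the 42, and 58 of them were expressed enough to be tested. With antiPD1 4 rose and 4 fell (6.90% each, beside 9.76% and 5.08% of all genes). Pdp1, a phosphatase that switches pyruvate dehydrogenase on, fell by 0.86 ± 0.15 on the log2 scale (adjusted p = 0.0191), and with it Sord, sorbitol dehydrogenase (-0.81 ± 0.22), Mpc2, a subunit of the mitochondrial pyruvate carrier (-0.48 ± 0.14), and Minpp1 (-0.42 ± 0.13). Among those that rose, liver glycogen phosphorylase, Pygl, rose by 2.05 ± 0.55, the transporter gene Slc2a6 by 2.001 ± 0.56 and the coactivator gene Ppargc1a by 0.92 ± 0.27. With the combination Bpgm (0.59 ± 0.16) and Mlxip (0.48 ± 0.14) rose and Mpc2 fell by 0.47 ± 0.14. Against IFNa, Bpgm, which makes 2,3-bisphosphoglycerate, rose by 0.82 ± 0.16 (adjusted p = 0.0431). Minpp1, Ppargc1a, Bpgm and Mlxip are named after their values were seen. No gene of the 58 passed with IFNa.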

How the data were processed

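Total RNA of 12 libraries was sequenced, and groups were taken from the sample labels. Per the submitters' processing notes, tools include Cufflinks, HTSeq and HISAT2 2.1.0, and the build is mm10; which annotation and strand setting applied is not given in the sources used here. Counts were deposited by the authors as whole numbers. Their deposited FPKM values are length-scaled and cover the same libraries. Members and lists were chosen with earlier results of these data known.

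Genes were filtered with filterByExpr (minimum count 10) and TMM-scaled in edgeR 4.0.16 (R 4.3.3), and tested with its robust quasi-likelihood F test on all 12 libraries with 1 mean per group. The threshold was an adjusted p of 0.05 (Benjamini-Hochberg, all 14330 genes). Errors cover counting and the spread between these libraries. No 2 libraries of a group agreed within sampling noise (chi-square per degree of freedom 14.6 to 242). Values in every library are given for genes that passed anywhere and, whatever their values, for Slc2a1, Hk2, Pkm, Ldha, Pck1 and G6pdx; of the further genes of glucose metabolism, up to 6 that passed are named, and 1 is not reported here. Coordinates and shared stretches of 50 bases come from GENCODE M21, promoters from RefSeq.

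Tested on simulated data of 14330 genes with 200 changed, the procedure recovered 57.7% of 2-fold and 87% of 4-fold changes for antiPD1 against untreated, 47% and 81.8% for the combination and 47% and 75.8% for IFNa, with 9, 4 and 4 false calls. Alternatives were RLE size factors, no filter, DESeq2 1.42.0, a replicate block, limma 3.58.1 on log2(FPKM + 1) and log2(FPKM + 0.1) with at least 1 FPKM in 3 libraries, the former unfiltered, only the groups compared, shares from counts, and leaving out each library. Leaving out IFNa replicate 1 and antiPD1 replicate 3 together was added after the data were seen.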

Additional observations from a re-analysis of the deposited data

How the results depend on the processing

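No change past the threshold reversed under any alternative run. RLE size factors and no low-count filter left the same 5 genes of the 42 called with antiPD1, the same 8 with the combination and Eno3 against IFNa. DESeq2 called 37 genes for IFNa, 3291 for antiPD1, 2979 for the combination, 15 for combination against antiPD1, 1661 for combination against IFNa and 55 for the interaction, with 11 of the 42 for antiPD1 and 6 for combination against IFNa. With limma on log2(FPKM + 1), 947 genes were called for antiPD1 and 996 for the combination, and on log2(FPKM + 0.1) 1046 and 1077. Without a filter, log2(FPKM + 1) gave 732 genes and 2 of the 42 for antiPD1, and 5 of the 42 for the combination. Fitting only the groups compared gave 0 genes and 0 of the 42 for antiPD1, 3789 and 14 for the combination, and 1132 and 5 for combination against IFNa; the interaction needs all groups and was not run so. The cause of these differences was not tested.

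Same-numbered libraries did not deviate together throughout (correlations of -0.304 to 0.503, and no pair of groups where all 6 libraries correlated best with their own number), so numbers were not taken to pair them. With a replicate block, combination against IFNa had 542 genes and 3 of the 42 called (Hk3, Eno3, Pdk2), antiPD1 7 and the combination 10.

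Leaving out 1 library at a time, genes called ranged from 0 to 3 for IFNa, 5 to 2705 for antiPD1, 33 to 2594 for the combination, 0 to 104 for combination against IFNa and 0 to 1 for the interaction. Of the 42, 0 to 9 were called for antiPD1, 0 to 15 for the combination and 0 for combination against IFNa. By antiPD1, the difference in share ranged from -0.157 to -0.0761 percentage points for Ldha, -8.47 to -4.34 for Slc16a1 and -5.42 to -3.70 for Hk2 (adjusted p 0.0267 to 0.16, passing without antiPD1 replicate 2). Without IFNa replicate 1 and antiPD1 replicate 3, 5 genes were called for IFNa, 4200 for the combination, 1305 for combination against IFNa and 2 for the interaction, with 14 of the 42 for the combination and 3 against IFNa, and shares of Ldha and Slc16a1 differed by -0.0769 and -4.20 points (adjusted p = 0.08 for both). With 3 libraries a group, 47% to 57.7% of simulated 2-fold changes were recovered, so changes of the size of most of the 42 could be missed.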
